A study of Mus musculus with 4 samples.

Results

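The RNAs described here were 60 long intergenic noncoding RNAs (lincRNAs), out of 19353 genes counted in muscle stem cells (MuSCs, satellite cells) of mouse plantaris muscle. They were selected on biotype and abundance, as the genes that the count table labels as lincRNA, that had at least 20 unique molecular identifiers (UMIs, each standing for 1 captured RNA molecule) over all libraries together, and that do not lie on a sex chromosome. The table had 782 lincRNA genes, of which 65 reached the minimum of 20. Of these 65, 3 (H19, Meg3 and Mirg) were left out by name and 2 were left out for lying on chromosome X. The minimum used the summed UMIs of both groups, so the abundance of these 60 RNAs is a property of how they were chosen. The difference between groups was not itself a criterion. However, a member with few UMIs in either group could reach the minimum only through the group where it was high. The summed UMIs do weigh the deeper libraries more, and these were the libraries from overloaded muscle.

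All mice carried a tamoxifen-inducible Cre recombinase expressed from Pax7 and a Rosa26 reporter (Pax7-CreERT2:Rosa-YFP), so that cells in which Pax7 was active during tamoxifen treatment were marked by yellow fluorescent protein. In the overloaded group the tendons of the gastrocnemius and soleus were cut, which loads the plantaris (tenotomy), and in the sham group the skin was opened and the tendons were left intact. YFP-positive cells were sorted at 4 days after surgery into tubes of 100 cells, and each tube gave 1 library by CEL-Seq2, which primes on poly(A) and reads the 3′ end. There were 2 sham and 2 overloaded libraries, which held 269683 and 260488 UMIs and 387955 and 483528 UMIs. The sources do not tell whether 1 group's tubes represent separate animals, so p-values here measure only the spread between these libraries, which may be technical. The age of the mice was not given in the sources used here.

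The sorted cells carried satellite cell RNA in every library. All 12 satellite cell markers were counted, with 1927 and 1670 UMIs in the sham libraries and 2141 and 2420 in the overloaded libraries, or 71.5 and 64.1 against 55.2 and 50.05 for each 10000 UMIs. Libraries were scaled by the TMM method of edgeR, and genes were tested with its quasi-likelihood test. On this scale 8 of the 12 were lower after overload, among them Chrdl2 (log2 fold change -2.53, adjusted p = 1.15e-07). Another 2 were higher, and the median log2 fold change was -0.82. Pax7 itself had 118 and 107 against 108 and 137 UMIs (log2 fold change -0.84, adjusted p = 0.000635). Markers of other cell types and cell cycle genes were also counted, with more UMIs per tube after overload in each of the lists below. The 12 leukocyte markers summed to 2 and 7 UMIs in the sham libraries and 78 and 212 in the overloaded libraries, with Lyz2 the most counted at 0, 0, 17 and 38 UMIs, and 8 of the 12 were at 0 in both sham libraries. The 10 myofiber markers, led by Acta1, summed to 421 and 227 against 1291 and 1546 UMIs, and the 14 cell cycle genes, led by Top2a, to 57 and 63 against 792 and 999 UMIs. The 10 endothelial markers, led by Fabp4, summed to 22 and 17 against 108 and 109 UMIs, and the 9 mural cell markers, led by Acta2, to 356 and 324 against 621 and 864 UMIs. The 10 fibro-adipogenic markers, led by Col3a1, summed to 1187 and 1066 against 1788 and 2036 UMIs, or 44.0 and 40.9 against 46.1 and 42.1 for each 10000 UMIs. After the same TMM scaling, 2 of 2 leukocyte, 7 of 7 myofiber and 12 of 13 cell cycle genes tested were higher and 0 were lower. The other lists were mixed, with 1 endothelial gene higher and 1 lower (Tek, log2 fold change -1.41), 2 mural genes higher and 2 lower (Notch3, -1.07, and Tagln, -0.61), and 2 fibro-adipogenic genes higher and 3 lower. In both sham libraries, 2 of the endothelial, 1 of the mural, 1 of the fibro-adipogenic, 2 of the myofiber (Myh1 and Myh2) and 2 of the cell cycle genes were at 0. The part of these cells in the results below was not tested unless a value is given for it.

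Long noncoding RNAs are transcribed, and usually spliced and polyadenylated, like messenger RNAs but code for no known long protein. Some act in the nucleus as scaffolds of chromatin or of nuclear bodies, some bind proteins or microRNAs (miRNAs) in the cytoplasm, and some matter mainly as precursors from which miRNAs or small nucleolar RNAs (snoRNAs) are cut out. In skeletal muscle, a few of them are known as regulators of the step from proliferating myoblast to differentiating myocyte.

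The member with the largest rise, Gm28653, and a member that fell, Mir17hg, are both hosts of miRNA genes, so the mature sequences are given before the values. Gm28653 (chr1:20669882-20684298, plus strand, GRCm38) begins at the same base as the RefSeq gene Lincmd1, the muscle differentiation RNA linc-MD1, and contains the hairpins of miR-206 and miR-133b, both of which are known as muscle-restricted miRNAs. Mir17hg (chr14:115042879-115046727, plus strand) contains 6 miRNA genes, among them miR-17, miR-18a and miR-19a, and is known as an oncogenic cluster of proliferating cells. The library method does not count mature miRNAs, and the values below are those of the host RNAs. In the sequences, from RefSeq (GRCm38.p6), capitals mark the seed, bases 2 to 8.
mmu-miR-206-3p, from Gm28653: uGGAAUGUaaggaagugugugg
mmu-miR-133b-3p, from Gm28653: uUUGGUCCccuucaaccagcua
mmu-miR-17-5p, from Mir17hg: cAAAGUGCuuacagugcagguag
mmu-miR-20a-5p, from Mir17hg: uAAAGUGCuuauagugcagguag
mmu-miR-18a-5p, from Mir17hg: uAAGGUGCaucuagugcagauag
mmu-miR-19a-3p, from Mir17hg: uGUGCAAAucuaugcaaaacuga
mmu-miR-19b-3p, from Mir17hg: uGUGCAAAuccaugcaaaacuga
mmu-miR-92a-3p, from Mir17hg: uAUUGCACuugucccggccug
Within the cluster, miR-17-5p and miR-20a-5p share the seed AAAGUGC, and miR-19a-3p and miR-19b-3p share GUGCAAA. The seeds of miR-206-3p and miR-133b-3p are found in no other miRNA of these hosts.

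To ask how these RNAs changed in overloaded MuSCs, both groups were compared gene by gene with the quasi-likelihood test of edgeR, and p-values were adjusted by the Benjamini-Hochberg method over every gene tested, with a threshold of 0.1. Of the 60 lincRNAs, 39 had enough counts to be tested, and 21 did not. After overload, 19 were lower, 6 were higher and 14 did not pass the threshold. The corresponding background over all 7228 genes tested was 26.3% lower and 25.8% higher. The median log2 fold change was -0.83 over the 39 lincRNAs tested and 0.05 over all genes tested. Lincmd1 (Gm28653) and Morrbid (Gm14005) rose most, and the nuclear RNAs Malat1 and Neat1 were among those that fell. A tested member had to pass a filter on counts, and the counts of tested members are therefore a description of those that passed. Gm28653, Gm14005, Lockd and 2900097C17Rik, all higher, passed it and reached the minimum of 20 UMIs only through the overloaded libraries. Some that were lower, such as B830012L14Rik and Gm45768, did so only through the sham libraries. That such members were tested is therefore no support for their change.

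These changes are relative to the total of each library after TMM scaling. With library totals alone, 7 of the 39 lincRNAs were higher and 18 lower, with a median log2 fold change of -0.55. Of all 7228 genes tested, 2694 were then higher and 1351 lower. The overloaded libraries held more UMIs from the same number of cells, and when UMIs per tube were compared without scaling, 12 of the 39 lincRNAs were higher and 3 were lower, against 6 and 19 above. On this scale 62.0% of all genes tested were higher and 4.58% were lower, and the median log2 fold change over all genes moved from 0.05 to 1.01. All 6 lincRNAs that were higher also had more UMIs in each overloaded tube than in either sham tube. Of the 19 that were lower, 6 had fewer UMIs in each overloaded tube than in either sham tube, namely Malat1, Gm26825, Gm32219, B830012L14Rik, Gm45768 and Gdap10. Of these, Gm26825 (adjusted p = 0.139), Gm45768 (adjusted p = 0.133) and Gdap10 (adjusted p = 0.247) did not pass the quasi-likelihood test per tube. The share of all genes separated in this way was not counted, so these numbers are a description only. The other 13 had overlapping or higher UMIs per tube and were lower as a share of the library. In such bulk tubes, fewer cells of a type and less of an RNA per cell cannot be told apart.

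**Figure D1:**
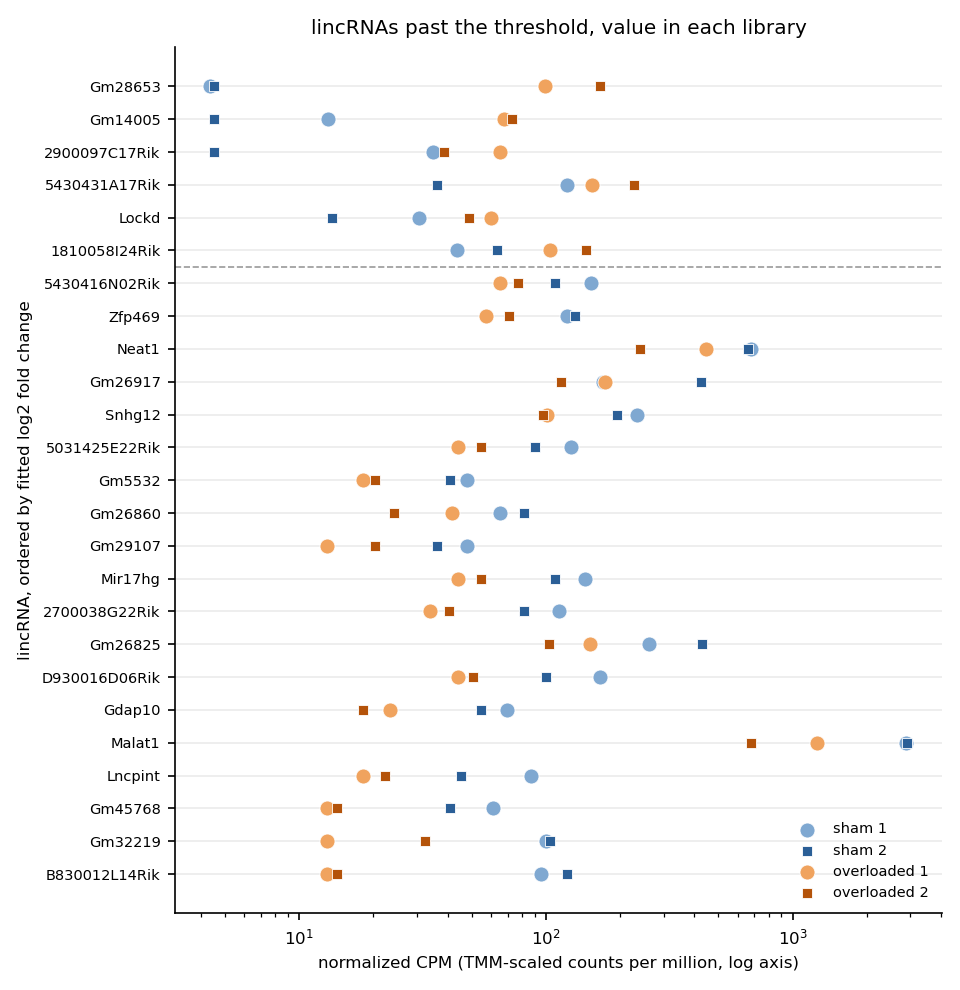
Normalized CPM (log axis) of the 25 lincRNAs past the threshold in each of the 4 libraries, with sham libraries in blue, overloaded libraries in orange, circles for replicate 1 and squares for replicate 2. The 6 RNAs above the dashed line were higher and the 19 below it were lower after overload, and Gm26917 is the member whose groups overlap.

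Together, the 60 lincRNAs took a smaller share of the UMIs after overload. The share was 0.644% (95% exact binomial interval 0.614 to 0.675) and 0.642% (0.612 to 0.673) in the sham libraries, and 0.457% (0.436 to 0.479) and 0.389% (0.371 to 0.407) in the overloaded libraries. The group means were 0.643% ± 0.00157 (SD, n = 2) and 0.423% ± 0.0482 (SD, n = 2), a 1.52-fold difference, and the groups did not overlap. The intervals cover counting error only, and with 2 libraries against 2 the two-sided exact permutation test gave p = 0.33, the smallest it allows. Malat1 alone accounted for 0.247% ± 0.000183 of the sham UMIs and 0.0969% ± 0.0394 of the overloaded UMIs (SD, n = 2). Without Malat1, the share of the others was 0.396% ± 0.00175 against 0.326% ± 0.00885 (SD, n = 2), so that most of the difference lay in this RNA.

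**Figure D2:**
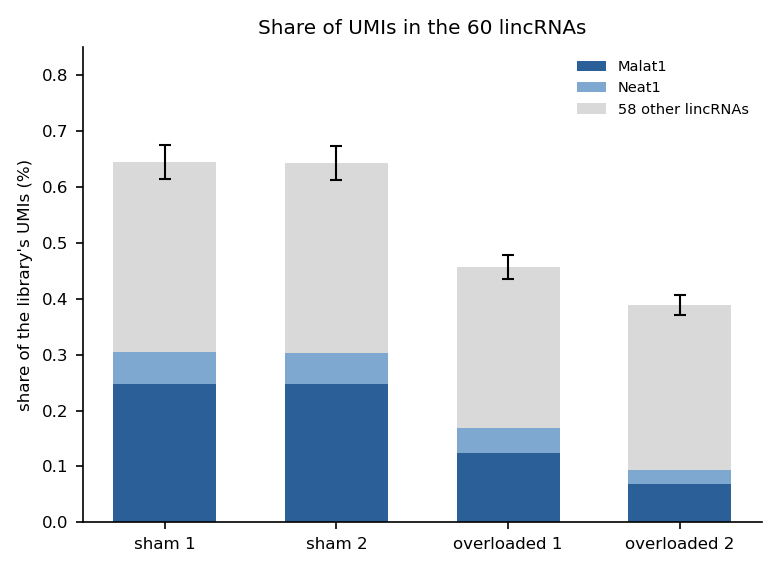
Share of each library's UMIs (%) in Malat1, Neat1 and the other lincRNAs, stacked, with the exact 95% binomial interval of the total as a black bar. The total was 0.644% and 0.642% in the sham libraries and 0.457% and 0.389% in the overloaded libraries.

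Gm28653 (Lincmd1) is a known RNA of early muscle differentiation that binds miR-133 and miR-135. It had 1 UMI in each sham library and 38 and 82 UMIs in the overloaded libraries. Its normalized CPM, the UMIs per 1000000 after scaling of the libraries by the TMM method of edgeR, was 4.35 and 4.53 against 98.8 and 166. The groups were far apart, and both overloaded libraries stood above every sham value. With 2 UMIs against 120, the ratio after scaling for library size was 30.8, with a 95% exact interval of 8.33 to 257 that covers counting error only. The fitted log2 fold change was 4.81 ± 0.60 (SE, adjusted p = 9.5e-06 by edgeR's quasi-likelihood test). Leaving out each library in turn gave log2 fold changes from 4.38 to 5.13. Myog, a transcription factor of muscle differentiation, had 52 and 49 against 246 and 282 UMIs, a log2 fold change of 1.43 (adjusted p = 9.96e-06). All 7 myofiber markers tested were higher too, and their part in the rise of Gm28653 was not tested.

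Gm14005 (Morrbid) is known for prolonging the life of short-lived myeloid cells by repressing its neighbour Bcl2l11, which codes for the pro-apoptotic protein Bim. It had 3 and 1 UMIs in the sham libraries and 26 and 36 in the overloaded libraries, or 13.1 and 4.53 against 67.6 and 72.9 normalized CPM. The groups did not overlap, and the overloaded values were close to each other. The log2 fold change was 2.94 ± 0.55 (SE, adjusted p = 0.000395), with 3.83 without sham replicate 1 and 2.36 without sham replicate 2. Bcl2l11, 15772 bp away on the opposite strand, had 8 and 25 against 26 and 30 UMIs and did not pass the threshold (log2 fold change -0.20, adjusted p = 0.722). The sum of leukocyte markers was 2 and 7 against 78 and 212 UMIs in the same libraries, and the part of leukocyte RNA in this value was not tested. Several annotated genes overlap Gm14005, and the strand setting of the counting was not stated, so their reads cannot be told apart from its own.

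The other 4 RNAs that were higher rose by 1.24 to 1.32 on the log2 scale. The gene 1810058I24Rik, known as Stmp1, codes for a small mitochondrial protein and is protein-coding in RefSeq despite its label here. It had 10 and 14 UMIs in the sham libraries and 40 and 72 in the overloaded libraries, and a log2 fold change of 1.24 ± 0.33 (SE, adjusted p = 0.00542). Its groups did not overlap, and it passed the threshold without each library in turn. The gene 5430431A17Rik, of no known function, had 28 and 8 against 59 and 112 UMIs, and a log2 fold change of 1.27 ± 0.34 (SE, adjusted p = 0.00652). Its sham libraries differed widely, and leaving out sham replicate 1 gave 2.37, against 0.62 (adjusted p = 0.130) without sham replicate 2.

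Lockd and Norad were higher with less certainty. Lockd, transcribed downstream of the cell cycle inhibitor gene Cdkn1b and known for an element in its promoter that acts on Cdkn1b, had 7 and 3 UMIs in the sham libraries and 23 and 24 in the overloaded libraries. Its log2 fold change was 1.26 ± 0.47 (SE, adjusted p = 0.0375), with 1.92 without sham replicate 1, 0.77 (adjusted p = 0.324) without sham replicate 2 and 1.14 (adjusted p = 0.179) without overloaded replicate 1. Cdkn1b itself had 110 and 79 against 170 and 182 UMIs, a log2 fold change of -0.05 (adjusted p = 0.831). The gene 2900097C17Rik is Norad, which binds Pumilio proteins and is known for keeping chromosomes stable during division. It had 8 and 1 against 25 and 19 UMIs and a log2 fold change of 1.32 ± 0.57 (SE, adjusted p = 0.0685), the largest p among the RNAs called. The call was lost without sham replicate 2 (log2 fold change 0.49, adjusted p = 0.543) and without overloaded replicate 1 (0.96, adjusted p = 0.361), and the value was 3.35 without sham replicate 1. Of the 13 cell cycle genes tested, 12 were higher in the same libraries, and their part in the rise of Lockd and Norad was not tested.

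**Figure D3:**
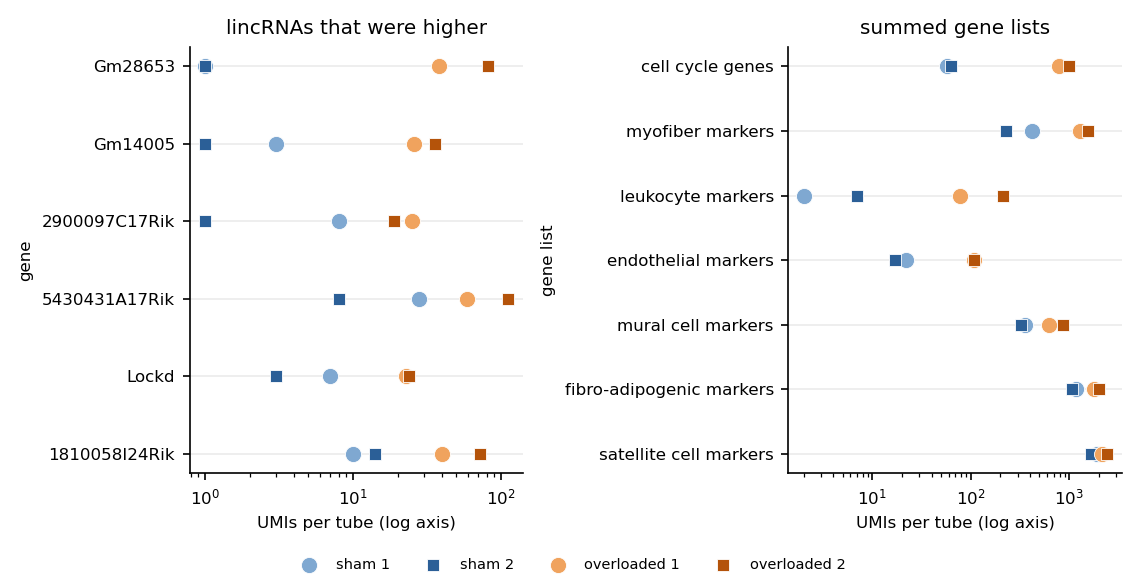
UMIs per tube of 100 cells (log axis) in each library, with sham in blue and overloaded in orange, for the 6 lincRNAs that were higher (left) and for the summed genes of 7 lists of cell type markers and cell cycle genes (right). Each of the 6 RNAs and each of these 7 lists had more UMIs in both overloaded tubes than in either sham tube, the leukocyte list having 2 and 7 against 78 and 212.

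Malat1, an abundant RNA of nuclear speckles, had more UMIs than any other member. It had 665 and 643 UMIs in the sham libraries and 484 and 334 in the overloaded libraries, or 2895 and 2913 against 1258 and 676 normalized CPM. The sham libraries were nearly equal, the overloaded libraries differed from each other, and the groups did not overlap on either scale. The log2 fold change was -1.60 ± 0.22 (SE, adjusted p = 2.34e-05), a level 3.02-fold lower. Its level was lower in overloaded replicate 2 than in replicate 1, and with each library left out the log2 fold change ran from -2.08 to -1.16. Per tube without scaling it was -0.68 (adjusted p = 0.000944), so that Malat1 was lower on both scales. With per-gene offsets that level out the trend of fold change with abundance, it was -0.33 (adjusted p = 0.0653).

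Neat1, the RNA around which nuclear paraspeckles assemble, lies next to Malat1 on chromosome 19. It had 156 and 145 UMIs in the sham libraries and 172 and 119 in the overloaded libraries, or 679 and 657 against 447 and 241 normalized CPM. The log2 fold change was -0.98 ± 0.22 (SE, adjusted p = 0.00169), but per tube it was -0.05 (adjusted p = 0.841), with the same offsets it was -0.23 (adjusted p = 0.335), and DESeq2 gave -0.96 with an adjusted p of 0.117. Without overloaded replicate 2 it was -0.54 and without overloaded replicate 1 it was -1.45. Malat1 and Neat1 each have 4 annotated transcripts, and which of them gave these poly(A)-primed counts was not tested. Pvt1, transcribed downstream of Myc and known for its ties to Myc, had 18 and 13 against 15 and 23 UMIs and did not pass the threshold (log2 fold change -0.67 ± 0.36, adjusted p = 0.148). Myc, 47612 bp away, had 164 and 160 against 99 and 120 UMIs and was lower (log2 fold change -1.52, adjusted p = 1.82e-06).

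A list of nuclear lncRNAs, which holds Malat1, Neat1 and Pvt1, had 7 genes tested, of which 5 were lower and 0 higher, with a median log2 fold change of -1.04, where 26.3% of all genes tested were lower and 25.8% higher. Of the 4 that are not lincRNAs by label, 3 were lower. Outside the 60 lincRNAs, Kcnq1ot1 and Airn, which silence imprinted neighbours, changed by -1.38 (adjusted p = 1.6e-05) and -1.61 (adjusted p = 3.09e-05), and Firre by -1.04 (adjusted p = 0.0301). Tug1 had 23 and 26 against 58 and 42 UMIs and a log2 fold change of 0.08 (adjusted p = 0.849).

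The hosts of small RNAs showed a fall or no call, apart from Gm28653. Snhg12, which carries 4 snoRNA genes (Snora16a, Snora44, Snora61 and Snord99), had 54 and 43 UMIs in the sham libraries and 39 and 48 in the overloaded libraries, or 235 and 195 against 101 and 97.2 normalized CPM. The groups did not overlap in CPM but did in UMIs per tube. Its log2 fold change was -1.12 ± 0.22 (SE, adjusted p = 0.00074) and -0.16 per tube. The gene 2700038G22Rik, host of Snord93, had 26 and 18 against 13 and 20 UMIs and a log2 fold change of -1.37 ± 0.35 (SE, adjusted p = 0.00434). Mir17hg had 33 and 24 against 17 and 27 UMIs, and a log2 fold change of -1.33 ± 0.31 (SE, adjusted p = 0.00246). The Mir17hg groups overlapped in UMIs per tube, and on that scale the change was -0.37 (adjusted p = 0.425).

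Several other hosts did not pass the threshold. Snhg6, host of Snord87, had 31 and 18 against 39 and 63 UMIs (log2 fold change 0.09 ± 0.28, adjusted p = 0.821), and Epb41l4aos had 27 and 27 against 26 and 49 UMIs (-0.50 ± 0.28, adjusted p = 0.167). Gm26532, whose first 2 bases overlap the end of the miR-24-2 hairpin, had 21 and 15 against 18 and 26 UMIs (-0.67 ± 0.34, adjusted p = 0.122). The gene 6720427I07Rik, which contains the let-7 genes Mirlet7a-1, Mirlet7f-1 and Mirlet7d, had 14 and 3 against 7 and 12 UMIs and was not tested. Snhg20, host of miR-6516, had 6 and 1 against 7 and 8 UMIs and was not tested.

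Hosts of other labels were read from the same fit. A list of known snoRNA hosts had 17 genes in the table, among them Snhg12, Snhg6, Epb41l4aos and Snhg20 but not 2700038G22Rik. Of these, 10 were tested, 6 were lower and 0 were higher, against 26.3% and 25.8% of all genes tested, with a median log2 fold change of -0.55. Without the lincRNAs in it, 5 of 7 were lower. Gas5, a growth arrest RNA with snoRNAs in its introns, had 170 and 158 against 165 and 143 UMIs (log2 fold change -1.03, adjusted p = 0.000279), and Snhg1 had 140 and 106 against 140 and 174 (-0.61, adjusted p = 0.00819). The Gas5 counts were nearly equal in all 4 tubes, so that its fall was a fall in share. A list of known miRNA hosts, which holds Mir17hg but not Gm28653, which was higher, had 12 genes in the table. Of these, 6 were tested, 4 were lower and 0 were higher, and without Mir17hg 3 of 5 were lower. Mir22hg had 115 and 95 against 65 and 109 UMIs (log2 fold change -1.24, adjusted p = 5.29e-05).

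A further list held selected lncRNAs with a named regulatory role, leaving out Gm28653 and the nuclear RNAs above. It had 14 genes in the table, of which 6 were tested, 3 were higher (Norad, Lockd and Morrbid) and 1 was lower, against 25.8% and 26.3% of all genes tested. Lncpint, an RNA induced by p53, had 20 and 10 UMIs in the sham libraries and 7 and 11 in the overloaded libraries. It was lower, with a log2 fold change of -1.68 ± 0.43 (SE, adjusted p = 0.00471), and the call was lost without sham replicate 1 (log2 fold change -1.17, adjusted p = 0.225). The gene 1700020I14Rik is Oip5os1, or Cyrano, which directs the decay of miR-7, and it had 13 and 28 against 38 and 59 UMIs (log2 fold change 0.27 ± 0.32, adjusted p = 0.515). Its value turned on the sham libraries, with -0.24 (adjusted p = 0.623) without sham replicate 1 and 0.92 (adjusted p = 0.0796) without sham replicate 2, and per tube it was 1.24 (adjusted p = 0.014). Dubr, known for promoting myoblast differentiation, had 5 and 6 against 15 and 15 UMIs and a log2 fold change of 0.48 ± 0.46 (SE, adjusted p = 0.437). The UMIs of Dubr per tube were higher after overload without overlap (log2 fold change 1.43, adjusted p = 0.0196), and the 95% interval of its scaled log2 fold change ran from -0.48 to 1.44. With the offsets for abundance, the log2 fold change of Dubr was -0.14 (adjusted p = 0.852). Hotair, which is transcribed from the HoxC cluster, had 11 and 4 against 3 and 5 UMIs and was not tested.

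Several RNAs with little known function also fell. B830012L14Rik (chr12:109695586-109702587, plus strand) had 22 and 27 UMIs in the sham libraries and 5 and 7 in the overloaded libraries, and its log2 fold change was -2.96 ± 0.41 (SE, adjusted p = 2.53e-05), a level 7.78-fold lower. It was lower per tube too (log2 fold change -2.01, adjusted p = 0.00204). It lies in the imprinted Dlk1-Dio3 region between Rian and Mirg, which are not among the 60 lincRNAs and had log2 fold changes of -2.86 and -3.44. Gm32219 had 23 and 23 against 5 and 16 UMIs, and a log2 fold change of -2.09 ± 0.40 (SE, adjusted p = 0.000526), with -2.89 without overloaded replicate 2 and -1.62 without overloaded replicate 1. Gm45768 had 14 and 9 against 5 and 7 UMIs, and its log2 fold change of -1.87 ± 0.45 (SE, adjusted p = 0.00291) lost the threshold without sham replicate 1 (-1.59, adjusted p = 0.183). Gdap10, an RNA that overlaps Nampt, had 16 and 12 against 9 and 9 UMIs and a log2 fold change of -1.58 ± 0.41 (SE, adjusted p = 0.00477). Gm26825 had 60 and 95 against 58 and 51 UMIs and a log2 fold change of -1.46 ± 0.24 (SE, adjusted p = 0.000151).

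For some lincRNAs it is uncertain what was counted. D930016D06Rik had 38 and 22 against 17 and 25 UMIs and a log2 fold change of -1.47 ± 0.33 (SE, adjusted p = 0.00169). Its nearest coding gene, BC005561, changed by -1.94 (adjusted p = 5.86e-06), and RefSeq treats the stretch of both as 1 gene, Thoc2l. Zfp469 had 28 and 29 against 22 and 35 UMIs and a log2 fold change of -0.96 ± 0.29 (SE, adjusted p = 0.0119), had 57 UMIs in each group in sum, and is protein-coding in RefSeq. Gm26917, with 69.1% G and C in its longest transcript, is known to share sequence with ribosomal RNA repeats. It had 39 and 94 against 67 and 57 UMIs, its groups overlapped, and its log2 fold change of -1.06 ± 0.31 (SE, adjusted p = 0.01) was -0.29 (adjusted p = 0.494) without sham replicate 2. Gm10076, a pseudogene in RefSeq whose reads may come from its parent gene, had 58 and 68 against 90 and 108 UMIs and did not pass the threshold (-0.31 ± 0.19, adjusted p = 0.19), and per tube it was higher (0.65, adjusted p = 0.0312).

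The remaining 5 RNAs that were lower, 5430416N02Rik, 5031425E22Rik, Gm26860, Gm5532 and Gm29107, had log2 fold changes from -1.29 to -0.87. With counts thinned to the smallest library, 5430416N02Rik (-0.64, adjusted p = 0.118) and Gm26860 (-0.91, adjusted p = 0.107) lost the threshold. With library sizes alone, 5430416N02Rik lost it as well (-0.59, adjusted p = 0.102). Gm5532 and Gm29107 lost the threshold when any of the 4 libraries was left out, with adjusted p-values up to 0.296 and 0.346. Gm26860 lost it without sham replicate 2 (adjusted p = 0.122) and without overloaded replicate 2 (adjusted p = 0.214), and 5430416N02Rik without sham replicate 1 (adjusted p = 0.2).

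With DESeq2 in place of edgeR, 3 of the 60 lincRNAs were higher and 11 lower, against 9.34% and 11.7% of all genes it tested, and 11 of the named lincRNAs lost the threshold. Of those that were higher, these were 5430431A17Rik (adjusted p = 0.303), Lockd (adjusted p = 0.253) and 2900097C17Rik (adjusted p = 0.269). Of those that were lower, these were Neat1, Gm26917 (adjusted p = 0.337), Zfp469 (adjusted p = 0.128), 5031425E22Rik (adjusted p = 0.111), 5430416N02Rik, Gm26860, Gm5532 and Gm29107.

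The 21 RNAs that were not tested had 20 to 43 UMIs in total. Without the filter, where the background among genes with at least 20 UMIs was 23.4% higher and 17.7% lower, 8 of the 60 lincRNAs were higher and 22 were lower, and 2 and 4 of these were RNAs that the filter had left out. AU020206 had 3 and 1 UMIs in the sham libraries against 18 and 13 in the overloaded libraries (log2 fold change 2.04, adjusted p = 0.0145 without the filter). Gm26623 had 4 and 2 against 33 and 4 UMIs, so that its value (1.76, adjusted p = 0.0181) came mainly from overloaded replicate 1. Hotair (-1.75, adjusted p = 0.032) and Gm20045 (5 and 10 against 3 and 4 UMIs, -1.94, adjusted p = 0.0183) were among the 4 that were lower. Gm27048 had 2 and 1 against 5 and 12 UMIs, a ratio of 2.91 after scaling for library size with a 95% exact interval of 0.841 to 15.5, which includes no change. Over the 60 lincRNAs, sham and overloaded values did not overlap in normalized CPM for 43, of which 33 were lower and 10 higher, and this held for 69.4% of all genes with at least 20 UMIs. Among the 39 tested it held for 32, against 72.9% of all genes tested.

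The 3 lincRNAs at the minimum of 20 UMIs were 5930430L01Rik (5, 1, 5 and 9 UMIs in the 2 sham and then the 2 overloaded libraries), Gm20300 (4, 2, 8 and 6) and Gm27048. Just outside the minimum were 11 lincRNAs with 18 or 19 UMIs, among them 2010320M18Rik (2, 0, 9 and 8) and Gm26615 (5, 11, 2 and 0). A count of 3, taken as the floor of what a library could show, equalled 13.1 and 13.6 normalized CPM in the sham libraries and 7.80 and 6.08 in the overloaded libraries.

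By position, the label intergenic covered several arrangements. Of the 60 lincRNAs, 10 overlapped a protein-coding gene, 32 lay within 5000 bp of one, and 28 overlapped another annotated long gene on either strand. The median distance to the nearest coding gene was 24271 bp for the 19 that were lower, 8444 bp for the 6 that were higher and 2737 bp for the 14 not called. The spliced length had a median of 3082, 3718 and 2905 bases in these groups, and 7 of 19, 2 of 6 and 5 of 14 had a single exon. RefSeq had a gene for 37 of the 60, of which 31 were lncRNAs, 5 were protein-coding and 1 was a pseudogene.

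Some of the nearest coding genes were called as well. Of the 19 lincRNAs that were lower, 10 had a tested neighbour, of which 3 were lower, 1 was higher and 6 were not called, where 26.3% of all genes tested were lower. The 3 were BC005561, Kmt2e (log2 fold change -0.81, adjusted p = 0.00118), which starts 172 bp from the start of 5031425E22Rik on the other strand, and Zfp536 (-1.41, adjusted p = 0.00631) which is the nearest coding gene to Gm45768 but 151035 bp away. The neighbour in the other direction was Sec31a (0.54, adjusted p = 0.0282), near 5430416N02Rik. Of the 6 that were higher, 3 had a tested neighbour and none of these passed the threshold. Of the 14 lincRNAs not called, 8 had a tested neighbour, of which 5 were lower and 3 were not called. Over the 21 pairs in which both were tested, Pearson's r of the log2 fold changes was 0.23 and Spearman's rho was 0.16, and over the 13 pairs within 5000 bp r was 0.45 and rho 0.43. These are correlations across genes that share the same 4 libraries, and are given as a description.

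Promoters, from 250 bases before to 50 after the annotated start, were available in RefSeq (GRCm38.p6) for 27 of the 60 lincRNAs, with 32 entries. They are printed for the 2 that rose most, with matches to the E-box CAGCTG and to the AP-1 motif TGANTCA on either strand in capitals. The promoter of Lincmd1 (chr1:20669632-20669931, plus strand) held 1 E-box, and that of Morrbid (chr2:128429302-128429601, minus strand) held 1 AP-1 motif. Gm14005 as counted spans chr2:128178319-128502765, so the RefSeq start of Morrbid lies inside it and is not its annotated start.
Lincmd1: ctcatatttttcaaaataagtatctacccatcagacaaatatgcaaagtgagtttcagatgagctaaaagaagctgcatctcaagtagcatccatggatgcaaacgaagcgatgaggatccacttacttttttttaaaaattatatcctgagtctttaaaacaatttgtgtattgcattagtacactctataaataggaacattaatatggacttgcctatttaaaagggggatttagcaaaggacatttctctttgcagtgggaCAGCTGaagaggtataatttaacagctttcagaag
Morrbid: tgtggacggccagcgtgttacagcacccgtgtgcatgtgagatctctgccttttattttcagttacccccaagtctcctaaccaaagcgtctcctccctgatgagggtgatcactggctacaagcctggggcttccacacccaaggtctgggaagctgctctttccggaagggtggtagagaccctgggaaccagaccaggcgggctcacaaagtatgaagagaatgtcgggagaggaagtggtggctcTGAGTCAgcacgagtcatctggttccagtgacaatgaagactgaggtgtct
The E-box was present in 7 of the 32 entries and in 16.3% of 32851 mouse promoters of the same length. The AP-1 motif was present in 5 of 32 and in 7.81% of all, and the box CCAAT in 11 of 32 and in 37.4% of all. The CRE motif TGACGTCA was present in 1 of 32 and in 1.79% of all, and the E2F motif TTTCCCGC in 0 of 32 and in 1.07% of all. These entries are not independent, because some RNAs had several, and Gm32219 gave more than 1 of those with an AP-1 motif. The Mir17hg entry (chr14:115044140-115044439), which held 2 E-boxes, lay inside the gene as counted, over the hairpins of miR-20a and miR-19b-1. A match is a run of letters and not evidence of binding.

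To see where the lincRNAs stood among noncoding RNAs, the same fit was read for the other long noncoding classes with at least 20 UMIs. Of 19 antisense RNAs tested, 8 were lower and 2 higher (median log2 fold change -0.83), and of 30 processed transcripts, 20 were lower and 3 higher (-0.68). Of 18 sense intronic RNAs, 14 were lower and 0 were higher (-1.50). Of 2 bidirectional promoter lncRNAs tested, 1 was higher and 0 were lower (0.11). Of 6868 protein-coding genes tested, 1673 were lower and 1848 were higher (0.09). The share of UMIs in all antisense RNAs was 0.443% ± 0.0175 in sham and 0.301% ± 0.0262 in overloaded libraries, and that in all sense intronic RNAs was 0.185% ± 0.00748 and 0.111% ± 0.000924 (SD, n = 2), without overlap (two-sided exact permutation p = 0.33, the smallest possible). The antisense and sense intronic classes therefore showed a lower share as well. Mean shares were also lower for processed transcripts (0.636% against 0.486%), unconfirmed (TEC) transcripts (1.32% against 0.847%) and processed pseudogenes (2.15% against 1.42%). Protein-coding genes took 93.0% against 95.2%. The lower share was thus not particular to the lincRNAs.

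Fold changes also moved with abundance across all genes. With the genes tested in 10 bins of equal size by average CPM, the median log2 fold change was 0.53 at the lowest abundance and -0.74 at the highest. The 2464 protein-coding genes in the middle of the abundance range of the tested lincRNAs had a median of 0.28, with 330 lower and 714 higher. With the offsets that level out this trend, 23 of the 39 lincRNAs were lower and 4 were higher, against 23.0% and 23.6% of all genes tested. Under these offsets Lockd (log2 fold change 0.95, adjusted p = 0.124) and Norad (2900097C17Rik, 0.97, adjusted p = 0.19) lost the call, and Neat1 lost it at -0.23. Pvt1 (log2 fold change -0.91, adjusted p = 0.0545), Gm26532 (-0.86, adjusted p = 0.0537) and Epb41l4aos (-0.61, adjusted p = 0.09998) passed the threshold there and were lower.

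**Figure D4:**
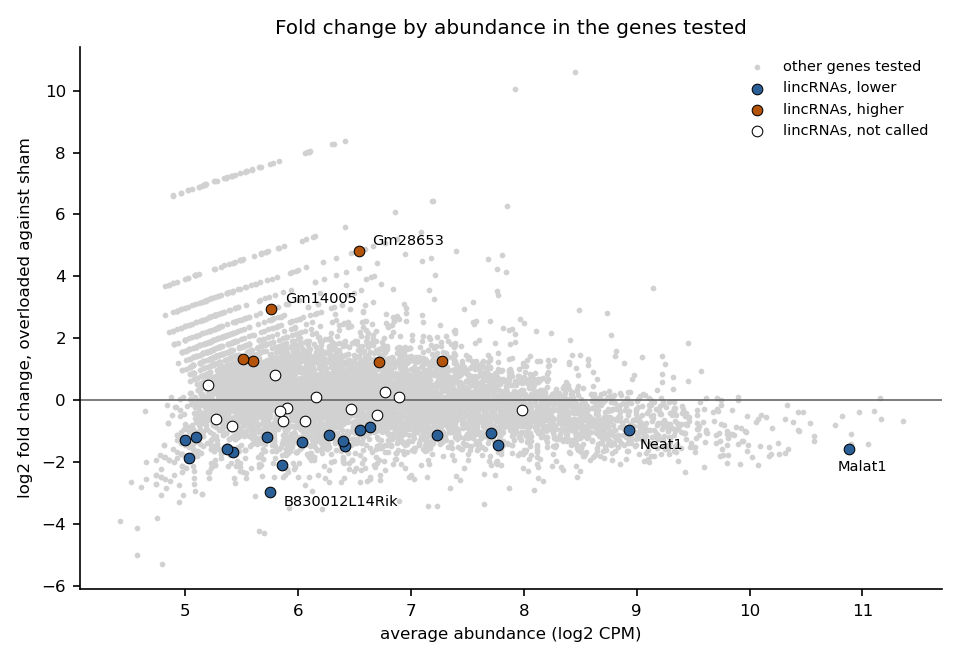
Fitted log2 fold change (overloaded against sham) against average abundance (log2 CPM) for the 7228 genes tested, with other genes in grey and the 39 tested lincRNAs in blue (lower), orange (higher) or white (not called). Most lincRNAs lie below the zero line at abundances where the grey cloud is centred at or above it.

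**Figure D5:**
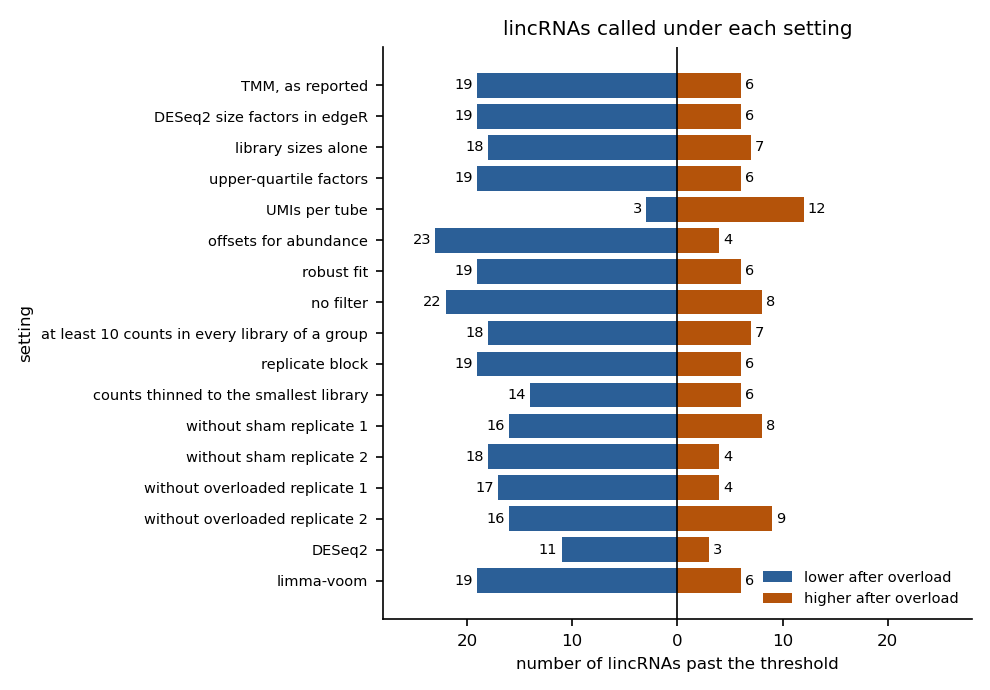
Number of lincRNAs past the threshold that were lower (blue, left) or higher (orange, right) under each setting of the analysis. The counts were 19 and 6 as reported. Under UMIs per tube they were 3 and 12, where 4.58% of all genes tested were lower and 62.0% were higher.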

How the data were processed

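The authors made the deposited table of UMI counts per gene from CEL-Seq2 libraries. Per the submitters' processing notes, UMI-tools 1.0.0, HISAT2 2.1.0, featureCounts 1.6.4 and the GRCm38 build were used, with DESeq2 1.22.2. The annotation release and the strand setting were not given in the sources used here, so reads of overlapping and antisense genes cannot be told apart. Values are raw counts with no normalization, and intervals (95%, Clopper-Pearson for shares) cover counting error only.

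Genes were filtered with filterByExpr (minimum count 10, minimum total 15), which left 7228 of 19353, scaled by TMM and tested with glmQLFit and glmQLFTest in edgeR 4.0.16 (R 4.3.3), the common biological coefficient of variation being 9.50%. Fitted fold changes used a prior count of 0.125. The test was checked on simulated data. Limma 3.58.1 and DESeq2 1.42.0 gave alternatives, beside other scalings, filters, a minimum of 40 UMIs, thinning and leaving out each library. Python 3.11.15 (numpy 2.4.6, pandas 2.3.3, scipy 1.17.1, matplotlib 3.10.9) was used for the rest. Libraries of a group differed by more than counting noise (chi-square per degree of freedom 1.19 for sham and 1.32 for overloaded), and each was kept as 1 library. Such spread can also be technical, so it does not show that the tubes were from separate animals.

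Genes were matched by Ensembl ID to GENCODE M21 (19353 of 19353 matched, 19331 with the same name, all with the same biotype), and 37 of the 60 lincRNAs to a RefSeq gene. Named genes were the lincRNAs in the lists of snoRNA hosts, miRNA hosts, nuclear and regulatory lncRNAs, the 10 with most UMIs, those called without overlap that ranked among the 10 strongest changes in either direction, hosts of small RNAs, those at the minimum, and their nearest coding genes. The other lincRNAs that were lower, Gm26623, AU020206 and genes that differ in annotation were named after their values were seen. The lincRNAs and all gene lists were chosen with earlier results of these data known.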

Additional observations from a re-analysis of the deposited data

How the results depend on the processing

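With UMIs per tube, 12 lincRNAs were higher and 3 lower, against 62.0% and 4.58% of all genes tested. This scale moved the median log2 fold change over all genes from 0.05 to 1.01. The median of the lincRNAs turned to 0.12. The values of 5430416N02Rik (0.094), Gm10076 (0.65) and, with no call on either scale, Epb41l4aos (0.47), Pvt1 (0.29) and Gm26532 (0.29) changed sign. Of the other named lincRNAs, 15 lost the threshold there and 3 passed it as higher, namely Snhg6 (1.05), 1700020I14Rik (1.24) and Dubr (1.43). DESeq2 called 3 higher and 11 lower with a median of -0.74, against 9.34% and 11.7% of all genes it tested. The median, -0.83 as reported, was -0.55 with library sizes alone, -0.74 with upper-quartile factors, -0.65 without a filter, -0.63 with at least 10 counts in every library of a group, -0.69 with thinned counts and -0.67 at a minimum of 40 UMIs. Leaving out each library gave medians from -0.89 to -0.67. Without Malat1 the difference in share was -0.0703 percentage points. Among the other classes, offsets for abundance left 1 antisense RNA higher, and library sizes alone gave 13 processed transcripts lower and 5 higher and 1 sense intronic RNA higher. The cause of these shifts was not tested.

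The replicate numbers were not found to pair the libraries (correlation of the differences within groups -0.034, over 2 pairs). These differences were little above counting noise (chi-square per degree of freedom 1.19 and 1.32), so this check could not exclude pairing. The sources do not tell whether sham and overloaded tubes came from legs of the same mouse. With the replicate number as a block, 6 lincRNAs were higher and 19 lower, against 25.0% and 25.8% of all genes tested. No named lincRNA then changed its call. Malat1, 1810058I24Rik, Gm32219, Gm28653, Gm14005 and B830012L14Rik kept direction and call under all 16 alternatives run on named genes. At low counts precision is limited by depth, a count of 3 being 6.08 to 13.6 normalized CPM.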
